A study of Homo sapiens with 16 samples.

Results

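Matrix metalloproteinases (MMPs) are zinc-dependent enzymes that cleave the proteins of the extracellular matrix and many proteins of the cell surface. Most are secreted as inactive precursors and need a cut by another protease to become active, while the membrane-bound MMP14 is activated inside the cell and works at its surface. The tissue inhibitors of metalloproteinases (TIMPs) bind the active enzymes and block them, and in breast cancer the balance of both groups is studied for its part in invasion and metastasis. Here 10 genes of these families were followed, namely MMP1, MMP2, MMP3, MMP7, MMP9, MMP13 and MMP14 with TIMP1, TIMP2 and TIMP3. They were chosen by name, and all 10 were found among the 18332 genes of the expression table.

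The data were RNA sequencing libraries of MDA-MB-231 and MDA-MB-468, established human breast cancer cell lines labelled as negative for the estrogen receptor (ER). Cells of each line spent 48 hours at a glucose level of 5 mM (low, the control group) or 25 mM (high). The 4 groups held 4 replicates each, 16 libraries in all. The labels name no gene edit and no other agent, and per the study's methods all cells were first kept in low-glucose medium and then treated without serum. The routine growth media of the lines differed, so line and medium cannot be told apart, and whether mannitol balanced the osmolarity of the low-glucose medium is not given for these libraries. Nothing in the labels says that replicates were separate cultures, so p-values measure the spread between these libraries, which may be technical.

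The authors scaled the read counts of each library by a size factor, and the values are called normalized read counts below. The whole reads behind them could be recovered, with between 14094597 and 24425916 reads per library. A count of 3 reads, used as the floor, equals 0.123 to 0.213 CPM (reads scaled to library size). Log2 fold changes are on the log2(value + 1) scale, and a gene is called where its adjusted p from limma, a linear model fitted over all genes, is under 0.05. In bulk RNA a smaller number of expressing cells and less RNA per cell cannot be told apart. The lines differed in their cell type markers. In low glucose VIM, a mesenchymal filament gene, had 96228 ± 2742 normalized reads (SD, n = 4) in the MDA-MB-231 libraries against 21.5 ± 5.48 in those of MDA-MB-468, while the epithelial adhesion gene CDH1 had 5.51 ± 1.12 against 2007 ± 54.2. The other epithelial markers followed differed less between the lines. Among them EPCAM had 215 ± 15.1 in MDA-MB-231 against 5428 ± 146 in MDA-MB-468. KRT19 had 12295 ± 732 in MDA-MB-231 against 25502 ± 904 in MDA-MB-468, and CLDN4 had 1740 ± 152 against 2322 ± 137. The mesenchymal markers SPARC and CDH2 had means of at most 7.84 in every group. ESR1, which encodes the ER, had 1.31 ± 1.01 normalized reads in low-glucose MDA-MB-231 and 57.9 ± 7.87 in low-glucose MDA-MB-468. Of the fibroblast markers, DCN had a mean of at most 0.263 in every group, and COL1A1 had means of 254 to 338 in both lines. PDGFRB had 206 ± 6.29 normalized reads in low-glucose MDA-MB-231 against 10.3 ± 3.58 in low-glucose MDA-MB-468, and LUM had 63.4 ± 12.5 against 0.

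The members' promoters that could be matched are shown first, because a reader may want to see which letters lie upstream of a gene. RefSeq promoter sequences (GRCh38.p14) were matched for 4 of the 10 members, MMP7, MMP14, TIMP1 and TIMP3. MMP1, MMP2, MMP3, MMP9, MMP13 and TIMP2 are named here without one. The 250 bases before each gene's start are printed 5′ to 3′ along the gene's own strand, with capitals where a searched motif matched on either strand.
MMP7, chr11:102530748-102530997, minus strand: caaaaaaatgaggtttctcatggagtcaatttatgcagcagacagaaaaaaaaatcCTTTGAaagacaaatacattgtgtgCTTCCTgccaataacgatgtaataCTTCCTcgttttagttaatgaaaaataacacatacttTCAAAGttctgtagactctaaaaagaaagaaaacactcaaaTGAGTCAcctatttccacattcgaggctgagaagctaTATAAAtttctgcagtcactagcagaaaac
MMP14, chr14:22836335-22836584, plus strand: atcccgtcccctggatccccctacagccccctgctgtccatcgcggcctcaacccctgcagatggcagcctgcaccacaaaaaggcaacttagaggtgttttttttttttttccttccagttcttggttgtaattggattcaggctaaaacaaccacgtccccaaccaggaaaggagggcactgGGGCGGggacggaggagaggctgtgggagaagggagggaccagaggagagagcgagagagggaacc
TIMP1, chrX:47582186-47582435, plus strand: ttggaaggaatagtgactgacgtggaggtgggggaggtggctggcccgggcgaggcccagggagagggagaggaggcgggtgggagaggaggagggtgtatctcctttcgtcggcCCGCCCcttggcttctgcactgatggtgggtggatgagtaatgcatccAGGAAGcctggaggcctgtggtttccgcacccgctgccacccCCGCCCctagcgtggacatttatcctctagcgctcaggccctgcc
TIMP3, chr22:32801455-32801704, plus strand: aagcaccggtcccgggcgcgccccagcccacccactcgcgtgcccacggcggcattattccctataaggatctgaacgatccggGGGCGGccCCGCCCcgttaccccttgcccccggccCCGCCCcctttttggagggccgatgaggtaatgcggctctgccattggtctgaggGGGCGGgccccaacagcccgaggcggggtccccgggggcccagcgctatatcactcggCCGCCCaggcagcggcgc

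The MMP7 window held the motif of AP-1 (TGANTCA) as TGAGTCA at bases 67 to 61 before the start, and the TATA box letters TATAAA at bases 30 to 25. It also held the TCF/LEF letters CTTTGA at bases 194 to 189 and, on the other strand, at bases 108 to 103. The ETS letters AGGAAG matched on the other strand at bases 169 to 164 and 145 to 140. The MMP14 window held none of these and matched the Sp1 letters GGGCGG at bases 66 to 61. In the TIMP1 window Sp1 letters matched 2 times and ETS letters 1 time, and in the TIMP3 window Sp1 letters matched 5 times. No match overlapped another. The G and C content was 33.6% for MMP7, 56.8% for MMP14, 64.8% for TIMP1 and 72.4% for TIMP3. Among the upstream windows of all 35116 promoters of the same length, 6.57% held the AP-1 letters, 10.7% TATAAA, 11.2% CTTTGA, 28.7% AGGAAG and 42.6% GGGCGG. A match is a description of these letters and shows no binding.

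The lines used different members of the family. MDA-MB-231 carried MMP14, MMP1 and high levels of the 3 inhibitors, while MDA-MB-468 carried MMP7 at a level above all its inhibitors. MMP3, MMP9 and MMP13 were at or near the floor in both lines. In low glucose limma called 8 of the 8 members tested between the lines, 2 higher and 6 lower in MDA-MB-468. MMP1, MMP7 and MMP13 entered this test only through the line where they were higher. Their calls were thus close to fixed by the filter and add nothing to the read counts given below. Of all 17115 genes tested 85.4% were called between the lines, so a call by itself sets no member apart. The median log2 difference of the tested members, MDA-MB-468 minus MDA-MB-231, was -2.84, against 0.08 over all genes.

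**Figure D1:**
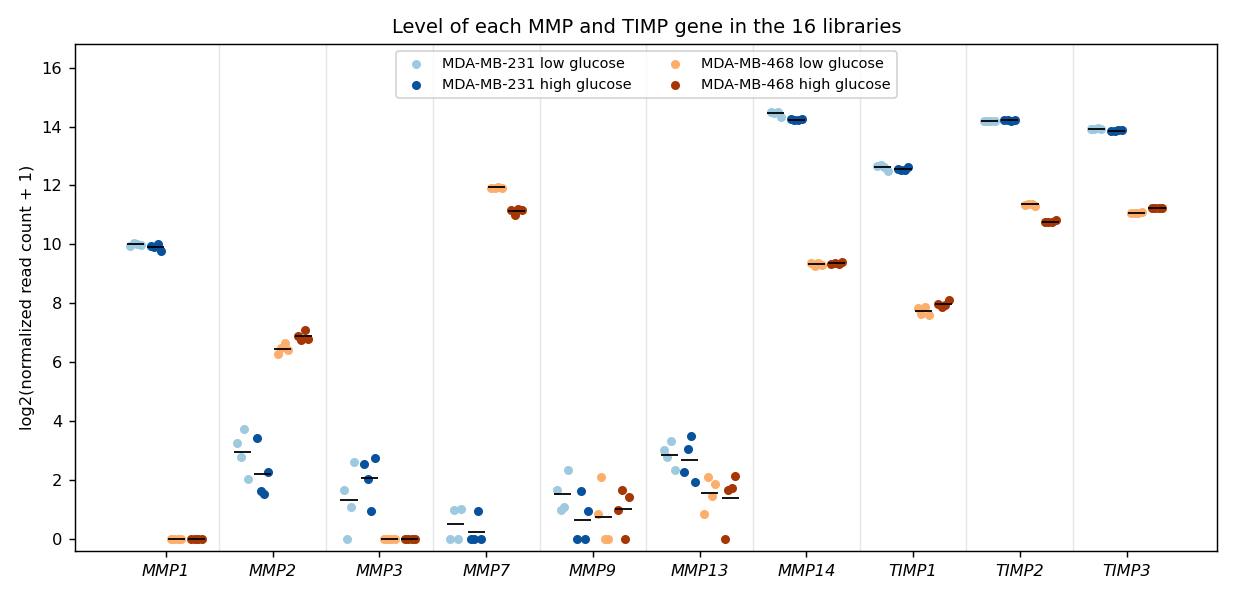
Level of the 10 members in each of the 16 libraries, as log2(normalized read count + 1). Points are libraries, 4 per group, and black lines are group means. MMP14 and the TIMPs sit higher in MDA-MB-231 (blue) and MMP7 and MMP2 sit higher in MDA-MB-468 (orange), while MMP3, MMP9 and MMP13 lie near the bottom in every library.

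Levels of different genes were compared only per length, as CPM per kilobase of the canonical transcript. On that scale the order in low-glucose MDA-MB-231 was TIMP1 at 475 ± 26.3 (SD, n = 4), MMP14 at 348 ± 15.9, TIMP2 at 297 ± 1.78, TIMP3 at 195 ± 1.14 and MMP1 at 29.9 ± 1.05. None of these neighbours overlapped, and the other 5 members had means of at most 0.138 and overlapped each other. In high-glucose MDA-MB-231 MMP14 at 305.7 ± 3.73 and TIMP2 at 305.2 ± 3.61 overlapped, while the order was otherwise that of low glucose among the 5 expressed members. In low-glucose MDA-MB-468 the order was MMP7 at 222 ± 2.14, TIMP2 at 45.6 ± 0.916, TIMP3 at 29.9 ± 0.588, TIMP1 at 17.7 ± 1.74, MMP14 at 11.01 ± 0.396 and MMP2 at 1.58 ± 0.167, with no overlap between neighbours. In high glucose the TIMPs stood in another order, with TIMP3 at 32.7 ± 0.157 above TIMP2 at 29.9 ± 0.808, and MMP7 stayed first at 125 ± 6.47. MMP7 made up 67.7% of the summed level of the 10 members in low-glucose MDA-MB-468 and 56.6% in high glucose.

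**Figure D2:**
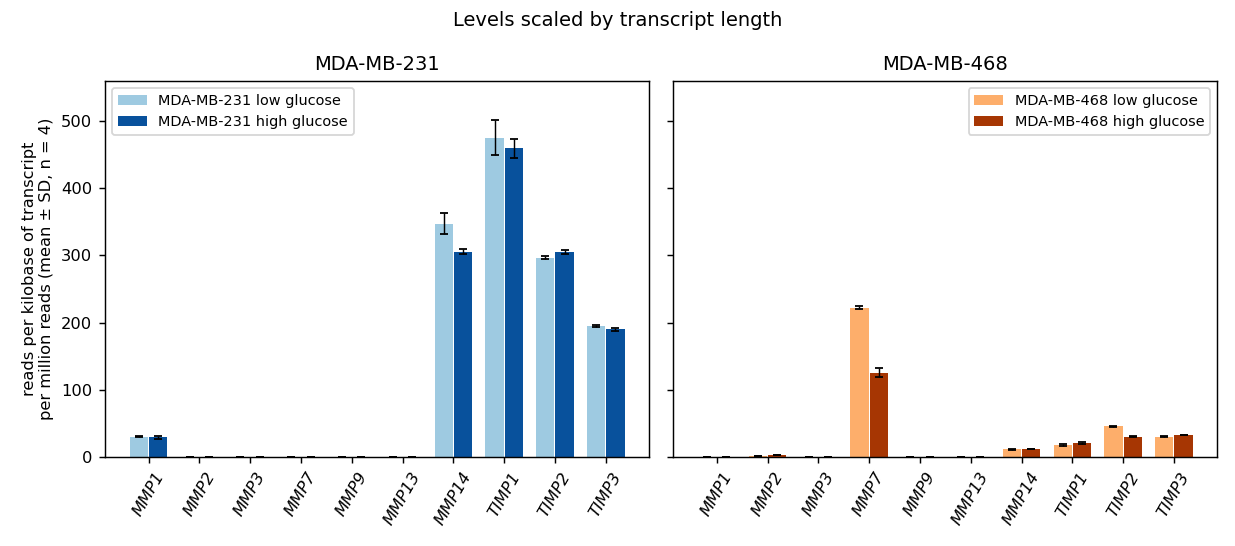
Levels scaled by transcript length (CPM per kilobase of canonical transcript) in MDA-MB-231 (left) and MDA-MB-468 (right), as means with SD of 4 libraries. TIMP1, MMP14, TIMP2 and TIMP3 lead in MDA-MB-231, and MMP7 leads in MDA-MB-468 at 222 in low and 125 in high glucose.

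The proteases of the chromosome 11 cluster are described first. On GRCh37 (hg19) the members of this cluster are MMP7 (chr11:102391239-102401481), MMP1 (chr11:102660132-102668891), MMP3 (chr11:102706532-102714340) and MMP13 (chr11:102813724-102826461), all on the minus strand. Although neighbours, they were read out in different lines. MMP1 was expressed in MDA-MB-231 alone and MMP7 in MDA-MB-468 alone, as far as these depths can show.

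MMP7 (matrilysin) is a small MMP that lacks the hemopexin domain of its relatives and is made mainly by epithelial cells. The low-glucose MDA-MB-468 libraries held 3882, 3884, 3951 and 3900.0 normalized MMP7 reads, and the high-glucose libraries 2278, 2058, 2360.0 and 2294. Every high-glucose library lay below every low-glucose library, and the gap between the groups was wider than the range within either. MMP7 fell by 0.80 on the log2 scale in high glucose (SE 0.04, limma adjusted p = 1.29e-10), or by 42.5%. In MDA-MB-231 each library held at most 1 read, with 2 reads in all in low glucose and 1 in high glucose. The pooled reads gave a ratio of MDA-MB-468 to MDA-MB-231 of 9242 in low glucose (95% exact binomial interval 2558 to 76318, counting error only), from 17277 against 2 reads. In high glucose that ratio was 9798 (1758 to 387025), from 9010 against 1 read. The difference of the glucose response between lines is not read for MMP7, since MDA-MB-231 was at the floor.

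MMP1 (interstitial collagenase) cuts the fibrillar collagens. Its low-glucose MDA-MB-231 libraries held 989.6, 1063, 1036 and 1001 normalized reads, and the high-glucose libraries 976.9, 966.6, 1026 and 876.0. The groups overlapped, with replicate 4 of high glucose the lowest. The log2 fold change was -0.09 (95% CI -0.19 to 0.01, limma adjusted p = 0.251). All 8 MDA-MB-468 libraries held 0 MMP1 reads. Set against a floor of 3 reads per library, MMP1 was at least 281-fold higher in MDA-MB-231 in low glucose and at least 265-fold higher in high glucose, in mean CPM.

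MMP3 (stromelysin-1) cleaves proteoglycans and can activate other MMPs, and MMP13 (collagenase-3) prefers type II collagen. MMP3 had between 0 and 6 reads in the MDA-MB-231 libraries and 0 in all those of MDA-MB-468, and it was tested in neither line. MMP13 had between 3 and 11 reads per MDA-MB-231 library and between 0 and 4 per MDA-MB-468 library. In MDA-MB-231 its log2 fold change with glucose was -0.17 (95% CI -1.17 to 0.83, limma adjusted p = 0.865), and 0.079 without replicate 4 of high glucose, so a glucose difference was not detectable at this depth. Between the lines in low glucose MMP13 had a log2 difference of -1.29 (SE 0.45, limma adjusted p = 0.0138), MDA-MB-468 minus MDA-MB-231. Without replicate 1 of low-glucose MDA-MB-468 that adjusted p was 0.0510. MMP13 entered this test only through MDA-MB-231, the line where it was higher. There, replicate 3 of low and of high glucose reached the 0.5 CPM needed for testing, and no MDA-MB-468 library did. The adjusted p is therefore no support for a difference between the lines.

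The gelatinases MMP2 (chr16:55423612-55540603, plus strand) and MMP9 (chr20:44637547-44645200, plus strand) degrade denatured collagen and the type IV collagen of basement membranes. MMP2 in low-glucose MDA-MB-468 had 76.7, 89.6, 98.9 and 84.4 normalized reads, and in high glucose 117, 107, 137 and 110.4. The groups did not overlap. MMP2 rose by 0.43 on the log2 scale (SE 0.12, limma adjusted p = 0.00634). This call rests on the spread within MDA-MB-468, since with the spread shared over all 16 libraries the adjusted p was 0.370. In MDA-MB-231 MMP2 had 8.57, 5.87, 12.3 and 3.08 normalized reads in low glucose and 9.73, 2.10, 1.86 and 3.80 in high glucose, from 2 to 12 reads per library. These groups overlapped, and the log2 fold change was -0.74 (95% CI -1.91 to 0.43, limma adjusted p = 0.430). The difference between the lines' responses was 1.17 (95% CI 0.06 to 2.28, limma adjusted p = 0.105), and it passed the threshold without replicate 4 of low-glucose (0.0289) or replicate 1 of high-glucose MDA-MB-231 (0.0100), and with DESeq2 (0.0394). MMP2 was 11.7 times higher in MDA-MB-468 than in MDA-MB-231 in low glucose and 26.9 times higher in high glucose, as ratios of mean normalized counts. MMP9 had between 0 and 4 reads in every library of both lines and was not tested for glucose, so no fold is given.

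MMP14 (MT1-MMP, chr14:23305769-23318250, plus strand) is anchored in the cell membrane, cuts collagen there and activates the MMP2 precursor. In low-glucose MDA-MB-231 it had 22942, 22457, 23154 and 20680 normalized reads, and in high glucose 19426, 18973, 19093 and 19605. All 4 high-glucose libraries were below all 4 low-glucose libraries, and replicate 4 of low glucose stood nearest to them. MMP14 fell by 0.21 on the log2 scale (SE 0.03, 95% CI -0.28 to -0.14, limma adjusted p = 0.000248), or by 13.5%. In MDA-MB-468 the low-glucose libraries had 654, 614, 664 and 631 normalized reads and the high-glucose libraries 644, 659, 646 and 676. Those groups overlapped, with a log2 fold change of 0.03 (95% CI -0.06 to 0.13, limma adjusted p = 0.570), which was -0.031 after a correction for GC content. The responses of the lines differed by 0.24 on the log2 scale, MDA-MB-468 minus MDA-MB-231 (SE 0.05, limma adjusted p = 0.000901). MMP14 was 34.8 times higher in MDA-MB-231 in low glucose and 29.4 times higher in high glucose.

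**Figure D3:**
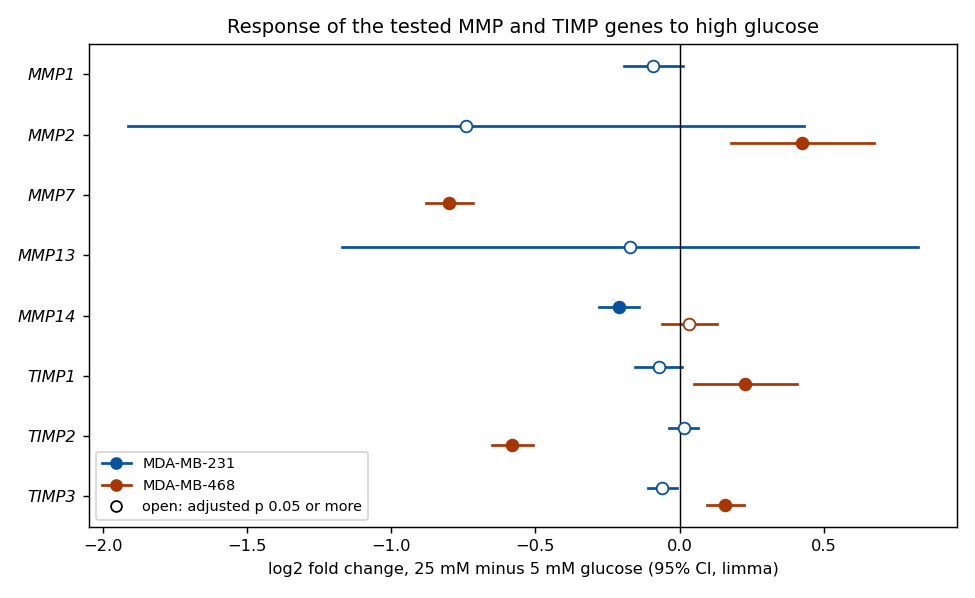
Log2 fold change of each tested member in high against low glucose, with its 95% confidence interval from limma. Filled points passed an adjusted p of 0.05 and open points did not. MMP14 is the filled point of MDA-MB-231 at -0.21, and MMP7 at -0.80 and TIMP2 at -0.58 are the farthest left of MDA-MB-468.

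TIMP2 (chr17:76849059-76921469, minus strand) inhibits MMPs broadly and, bound to MMP14, also holds the MMP2 precursor in place for its activation. In low-glucose MDA-MB-468 it had 2614, 2644, 2678 and 2536 normalized reads, and in high glucose 1723, 1715, 1735 and 1834. The groups were far apart, with replicate 4 of high glucose above the other 3. TIMP2 fell by 0.58 on the log2 scale (SE 0.03, limma adjusted p = 1.14e-09), or by 33.1%. In MDA-MB-231 it had 18800.1, 18763, 18833 and 18820 normalized reads in low glucose and 18994, 19098, 18596 and 19272 in high glucose. These overlapped, with a log2 fold change of 0.01 and a narrow interval (95% CI -0.04 to 0.07, limma adjusted p = 0.769). The difference between the responses of the lines was -0.59 (SE 0.03, limma adjusted p = 2.23e-09). TIMP2 was 7.18 times higher in MDA-MB-231 than in MDA-MB-468 in low glucose and 10.8 times higher in high glucose.

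TIMP3 (chr22:33197691-33259028, plus strand) is the inhibitor that stays bound to the extracellular matrix, and it also blocks several ADAM and ADAMTS proteases. Its low-glucose MDA-MB-468 libraries had 2159, 2164, 2121 and 2209 normalized reads, and the high-glucose libraries 2428, 2388, 2413 and 2434. The groups did not overlap. TIMP3 rose by 0.16 on the log2 scale (SE 0.03, limma adjusted p = 0.000369). The MDA-MB-231 values were 15561, 15343, 15681 and 15475 in low glucose and 14776, 14809, 14975 and 14977 in high glucose, again with no overlap. There the log2 fold change was -0.06 (95% CI -0.11 to -0.01, limma adjusted p = 0.113). The difference between the lines' responses was 0.22 (SE 0.03, limma adjusted p = 4.96e-06). TIMP3 was 7.17 times higher in MDA-MB-231 in low glucose. It lies within SYN3 on the opposite strand. SYN3 had 63.1 ± 5.08 normalized reads in low-glucose and 55.8 ± 9.24 in high-glucose MDA-MB-468, and whether reads were counted by strand is not stated.

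TIMP1 (chrX:47441807-47446188, plus strand) is a soluble inhibitor of most secreted MMPs and a weak one of MMP14. In low-glucose MDA-MB-468 it had 229, 199, 235 and 192 normalized reads, and in high glucose 249, 232, 244 and 276. The groups overlapped, since replicate 3 of low glucose lay above replicate 2 of high glucose. TIMP1 nonetheless passed the threshold, at 0.23 on the log2 scale (SE 0.08, limma adjusted p = 0.0344). That call was lost in 9 of 21 alternatives, with adjusted p up to 0.172, among them DESeq2 (0.0830) and a correction for transcript length (0.153). It was also lost on leaving out replicate 2 (0.0900) or 4 (0.113) of low glucose, or replicate 1 (0.0594) or 4 (0.114) of high glucose. In MDA-MB-231 TIMP1 had 6526, 6635, 6385 and 5813 normalized reads in low glucose and 6072, 5858, 5875 and 6296 in high glucose, which overlapped. There the log2 fold change was -0.07 (95% CI -0.15 to 0.01, limma adjusted p = 0.246), and without replicate 4 of low glucose, the lowest library, it was -0.11 with an adjusted p of 0.0112. The difference between the lines' responses was 0.30 (SE 0.09, limma adjusted p = 0.0200). TIMP1 was 29.7 times higher in MDA-MB-231 in low glucose. The gene lies within SYN1 on the opposite strand, which in MDA-MB-468 had 100.1 ± 8.82 normalized reads in low and 28.3 ± 8.27 in high glucose (log2 fold change -1.83, SE 0.19, limma adjusted p = 6.29e-07). Without strand, SYN1 reads that fall on TIMP1 exons cannot be told from TIMP1 reads. The part of SYN1 in the TIMP1 values was not tested.

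Counted together, limma called 1 of the 7 members tested in MDA-MB-231, MMP14, and it was lower in high glucose. Of all 14884 genes tested in that line 15.1% were called, 9.37% downward. The glucose groups did not overlap for 2 of the 7, MMP14 and TIMP3, against 18.7% of all genes. In MDA-MB-468 5 of the 6 members tested were called, 3 upward (MMP2, TIMP1 and TIMP3) and 2 downward (MMP7 and TIMP2). Of all 15757 genes tested there 47.6% were called, 24.9% upward and 22.7% downward. The groups did not overlap for 4 of the 6, against 42.5% of all genes. The median of the tested members, on the log2 scale, was -0.09 for MDA-MB-231 against 0.10 for MDA-MB-468. Over all genes the medians were 0.0017 and 0.00011. The responses of the lines differed for 4 of 8 members tested, MMP14, TIMP1, TIMP2 and TIMP3, against 30.9% of all genes. Of the 4 others MMP2 did not pass, and MMP1, MMP7 and MMP13 were at or near the floor in a line, so their test says little. In MDA-MB-231 the count depended on the settings, with 2 called after a correction for transcript length, 3 after one for GC content, 2 with the spread shared over all 16 libraries and 2 without replicate 4 of low glucose.

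Because TIMP2 and MMP14 act together at the cell surface, their ratio per length was followed in each library. It was 0.856 ± 0.0452 (SD, n = 4) in low-glucose MDA-MB-231, with a range of 0.824 to 0.922, and 0.999 ± 0.0148 in high glucose, with a range of 0.987 to 1.02. In MDA-MB-468 it was 4.14 ± 0.149 in low glucose (4.05 to 4.37) and 2.71 ± 0.0477 in high glucose (2.64 to 2.75). The ratio was thus higher in every high-glucose library of MDA-MB-231 and lower in every high-glucose library of MDA-MB-468 than in the low-glucose libraries of the same line. Summed over the 3 TIMPs and 7 MMPs, the TIMP to MMP ratio per length was 2.56 ± 0.0643 in low-glucose and 2.85 ± 0.0414 in high-glucose MDA-MB-231. In MDA-MB-468 it was 0.397 ± 0.00753 in low and 0.600 ± 0.0275 in high glucose. These are ratios of RNA and were not tested.

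**Figure D4:**
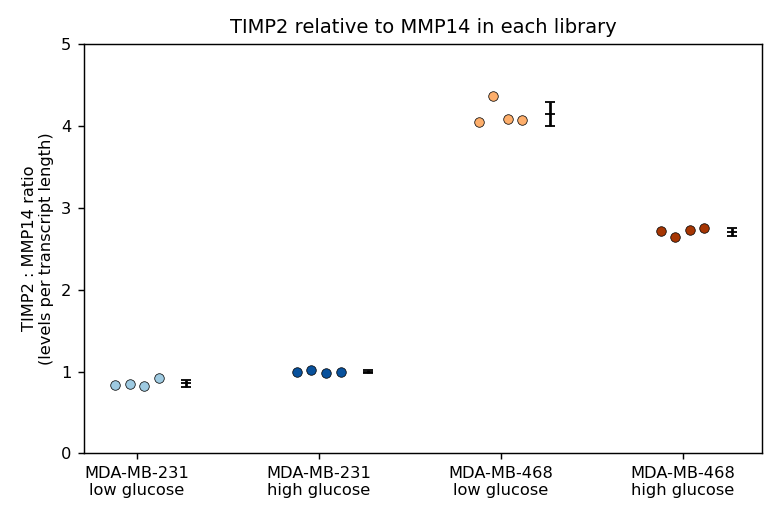
Ratio of TIMP2 to MMP14, both per transcript length, in each library. Points are libraries, 4 per group, and the bars beside them are the mean with SD. The ratio is 0.856 in low and 0.999 in high glucose in MDA-MB-231. In MDA-MB-468 it is 4.14 in low and 2.71 in high glucose.

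The rest of the family was a list of 17 genes, further MMPs and TIMP4, of which 11 had a row. In MDA-MB-231 1 of 8 tested was called, a share near the 15.1% of all genes. It was TIMP4, an inhibitor like the 3 members, which rose by 0.49 on the log2 scale (SE 0.10, limma adjusted p = 0.00191), from 109 ± 8.12 to 154 ± 12.2 normalized reads. In MDA-MB-468 3 of 6 were called, a share near the 47.6% of all genes. The medians of the list were 0.05 and -0.27 on the log2 scale. MMP20 (enamelysin), the MMP gene next to MMP7 in the chromosome 11 cluster, fell by 1.47 (SE 0.23, limma adjusted p = 5.94e-05), from 32.9 ± 2.09 to 11.3 ± 1.79 normalized reads. The membrane-type genes MMP24 and MMP15 went opposite ways. MMP24 fell by 0.91 (SE 0.29, limma adjusted p = 0.0166), from a low level of 19.9 ± 3.53 to 10.3 ± 2.85 normalized reads. MMP15 rose by 0.25 (SE 0.04, limma adjusted p = 0.000165) to 1044 ± 30.9 normalized reads. MMP20 had 0 reads in all MDA-MB-231 libraries.

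Genes that activate MMPs or hold proteases at the cell surface were followed as a list of 20. In MDA-MB-231 8 of 18 tested were called, 4 up and 4 down, with a median log2 fold change of -0.06, where 15.1% of all genes were called. In MDA-MB-468 14 of 18 were called, 8 up and 6 down, with a median of 0.09, where 47.6% of all genes were called. PLAU encodes urokinase, which generates plasmin, an activator of MMP precursors. It fell by 0.32 in the MDA-MB-231 libraries (SE 0.03, by limma adjusted p = 1.07e-06) and rose by 0.45 in MDA-MB-468 (SE 0.10, limma adjusted p = 0.00133), with a difference between lines of 0.78 (limma adjusted p = 8.30e-07). FURIN, the protease that activates MMP14, rose in MDA-MB-468 from 559 ± 25.0 to 803 ± 40.2 normalized reads (log2 fold change 0.52, SE 0.05, limma adjusted p = 3.41e-07). FURIN in MDA-MB-231 had -0.11 (limma adjusted p = 0.153), and the responses differed by 0.63 (limma adjusted p = 5.35e-06). TFPI2, a serine protease inhibitor of the matrix, fell by 1.01 in MDA-MB-468 (SE 0.11, limma adjusted p = 1.51e-06). SERPINE2, which encodes a secreted serine protease inhibitor, fell there by 0.55 (limma adjusted p = 0.00245) and rose by 0.20 in MDA-MB-231 (limma adjusted p = 0.00106). The SERPINE2 responses differed by -0.76, MDA-MB-468 minus MDA-MB-231 (limma adjusted p = 0.000653). In MDA-MB-231 LRP1, an uptake receptor for proteases and their inhibitors, fell by 0.25 (limma adjusted p = 0.00105), and the lysosomal protease gene CTSL rose by 0.22 (limma adjusted p = 0.000922). LRP1 and CTSL were both lower in high-glucose MDA-MB-468, where LRP1 fell by 0.41 and CTSL, whose groups overlapped, by 0.31 (limma adjusted p = 4.53e-05 and 0.0150). The CTSL responses differed by -0.53 (limma adjusted p = 0.00151).

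The ADAM and ADAMTS genes, relatives of the MMPs that shed surface proteins or cut proteoglycans, were a list of 13. In MDA-MB-231 6 of 11 tested were called and all 6 were lower in high glucose, with a median log2 fold change of -0.19, while 15.1% of all genes were called and 9.37% were called downward. ADAMTS6 fell by 0.46, ADAM19 by 0.28, ADAMTS15 by 0.25 and ADAMTS1 by 0.25, with limma adjusted p of 0.0260, 2.02e-05, 0.00254 and 0.00146. In MDA-MB-468 4 of 7 were called, 1 up and 3 down, with a median of -0.14, against 47.6% of all genes. ADAMTS1 fell there too, by 0.64 (limma adjusted p = 4.17e-06), from a mean of 346 to a mean of 224 normalized reads. In MDA-MB-468 ADAM9 fell by 0.20 and ADAM10, a main sheddase, by 0.11 (limma adjusted p = 0.000792 and 0.0173), while ADAM15 rose by 0.22 (limma adjusted p = 0.000117). ADAM9 and ADAM10 were also called in MDA-MB-231, where they fell by 0.14 and 0.19 (limma adjusted p = 0.00733 and 0.000464).

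AP-1 and ETS factors, known regulators of several MMP promoters, formed the last list of 13 genes together with RUNX2, a Runt-domain factor. In MDA-MB-231 5 of 13 were called, 1 up and 4 down, with a median log2 fold change of -0.05, against 15.1% of all genes called. In MDA-MB-468 6 of 13 were called, 2 up and 4 down, with a median of -0.11, a share near the 47.6% called over all genes. FOSL1, an AP-1 subunit, fell in both lines, by 0.17 in MDA-MB-231 (limma adjusted p = 0.000892) and by 0.73 in MDA-MB-468 (limma adjusted p = 0.0105). Its level differed greatly, with 7346 ± 213 normalized reads in low-glucose MDA-MB-231 and 52.2 ± 15.9 in low-glucose MDA-MB-468. RUNX2 fell by 0.20 in MDA-MB-231 (limma adjusted p = 0.0252) and rose by 0.23 in MDA-MB-468 (limma adjusted p = 0.0135), a difference of 0.43 (limma adjusted p = 0.000545). ETS1 fell by 0.16 and the AP-1 gene JUNB rose by 0.14 in MDA-MB-231 (limma adjusted p = 0.00148 and 0.0316). ETS1 was lower in high-glucose MDA-MB-468 too, by 0.20 (limma adjusted p = 0.000734). In MDA-MB-468 FOSL2 fell by 0.25 and ETV5, whose groups overlapped, by 0.34 (limma adjusted p = 1.78e-05 and 0.0132).

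**Figure D5:**
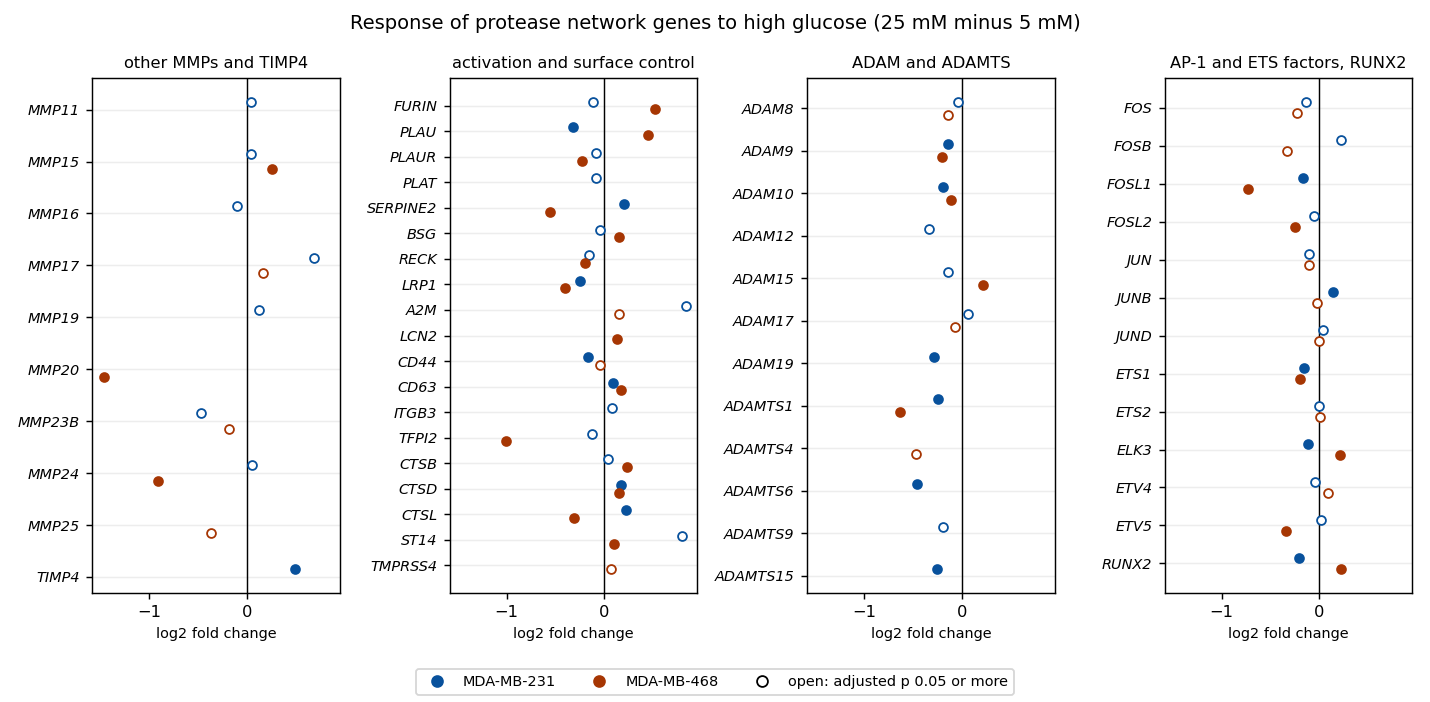
Log2 fold change in high against low glucose for tested genes of the 4 further lists, with MDA-MB-231 in blue and MDA-MB-468 in orange. Filled points passed a limma adjusted p of 0.05 and open points did not. PLAU and RUNX2 are among the genes filled on opposite sides of 0 in the lines, and MMP20 at -1.47 is the farthest left.

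The genes most like the member of the largest called change were found by Pearson's r of log2(value + 1) over the 8 libraries of a line. Like MMP14 in MDA-MB-231 were NECTIN1 (r = 0.997), TUBB4B (0.992) and SUN2 (0.989), among 14250 genes compared. NECTIN1 went from 465 ± 42.2 to 343 ± 8.87 normalized reads. Like MMP7 in MDA-MB-468 were NEDD9 (r = 0.999), SYBU (0.998) and ADIPOR2 (0.998), among 14912 genes. NEDD9 went from 431 ± 10.8 to 223 ± 13.4 normalized reads. The points share their glucose groups, which alone can give a high r, so these values are a description.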

How the data were processed

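RNA sequencing libraries of 2 cell lines, 2 glucose levels and 4 replicates were analyzed, grouped by the sample labels. Per the study's methods the reads were trimmed, aligned to hg19 with TopHat and an Ensembl annotation, and counted per gene, while the submitters' processing notes name hg38 and edgeR. The program and strand setting used for counting are not given in the sources used here. The values deposited by the authors are a normalized signal, read counts divided by a size factor per library. Divided by the smallest step of a library, 100% of values came out whole within 0.001 reads, and these whole reads were recovered. The methods' CPM with TMM factors is another unit. Of 18332 Ensembl IDs, 17647 were paired with a symbol and 17418 with a canonical transcript length from a GENCODE annotation lifted to GRCh37. All columns were used. Recovered reads per library ranged from 14094597 to 24425916. Intervals on pooled reads and the floor of 3 reads cover only counting error.

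A gene was tested in a line where 2 or more of the 8 libraries reached 0.5 CPM. For the differences between lines, 2 or more of all 16 libraries had to reach it, so a gene could enter through 1 line alone. High was compared with low glucose by limma 3.58.1 (R 4.3.3) on log2(value + 1) (lmFit, then eBayes with trend, two-sided, Benjamini-Hochberg over all genes tested, threshold 0.05). The difference between lines in response and in low-glucose level came from a model of 4 group means over all 16 libraries. A fold change on this scale understates the change of low genes. Alternatives were other pseudocounts and filters, median-of-ratios and quantile rescaling, edgeR 4.0.16 (quasi-likelihood) and DESeq2 1.42.0 on the recovered reads, the replicate number as a block, corrections for transcript length and GC content, the shared spread of all 16 libraries, and leaving out each replicate in turn. Only the limma fit was also run on simulated reads, with changes larger than the members' called glucose changes and in well-covered genes. That run does not speak for small changes or low counts.

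The members and gene lists were chosen with earlier results of these data known. Named genes were the 10 members, up to 4 called genes per further list and line of largest absolute log2 fold change with a mean of at least 10 normalized reads, and the 3 genes most like 1 member per line. A gene of the activation and surface control list is counted in that list but is not reported here by name or plotted. The chi-square per gene between replicates was 2.02 to 5.20, above the value near 1 of pure counting error. The correlation between deviations of same-numbered libraries ranged from -0.040 to 0.0319, so the numbers were not taken as pairs.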

Additional observations from a re-analysis of the deposited data

Results flagged for a closer look

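The glucose response of 4 members differed between the lines by limma's interaction test, as the log2 fold change in MDA-MB-468 minus that in MDA-MB-231. The difference was 0.24 for MMP14 (adjusted p = 0.000901), 0.30 for TIMP1 (adjusted p = 0.0200), -0.59 for TIMP2 (adjusted p = 2.23e-09) and 0.22 for TIMP3 (adjusted p = 4.96e-06). All 4 passed the threshold in each of 28 alternatives, with adjusted p up to 0.0457 for TIMP1. TIMP2 in high-glucose MDA-MB-468 had 1834 normalized reads in replicate 4, apart from the other 3 libraries at 1715 to 1735. This was 1 of 30 groups of 4 libraries looked at, and chance sets about 1 in 20 apart.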

How the results depend on the processing

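Across 26 values of single members and 563 recomputed values, 541 kept their direction and side of the threshold, 11 lost the call, 9 gained it and 2 turned direction. The 2 that turned were MMP13 in MDA-MB-231, 0.079 without replicate 4 of high glucose, and MMP14 in MDA-MB-468, -0.031 with the GC correction. Neither was called in any alternative. Leaving out a replicate gave MMP13 -0.34 to 0.079 where it was still tested. MMP7, TIMP2 and TIMP3 in MDA-MB-468 and MMP14 in MDA-MB-231 kept their calls in all 21 alternatives. The count of members called in MDA-MB-231, 1 in the fit described, was 2 with the correction for transcript length, 3 with that for GC content, 2 with the replicate block and the length correction together, and 2 with the spread shared over 16 libraries, and leaving out 1 replicate gave 1 to 2. In MDA-MB-468 the count ranged from 4 to 5 and lost TIMP1 or MMP2. Apart from the block with the length correction, the replicate block changed no member's call, with 1 called in MDA-MB-231, 5 in MDA-MB-468, 4 for the difference in response and 8 between the lines. The replicate numbers were not shown to pair samples, since 0 of 8 libraries in MDA-MB-231 and 4 of 8 in MDA-MB-468 correlated best with their own number. A filter on the mean left MMP2 and MMP13 untested in MDA-MB-231, and DESeq2 gave them no adjusted p there. The 0.5 CPM filter also left MMP13 untested in that line without replicate 3 of low or of high glucose. It left MMP2 untested there without replicate 3 of low or replicate 1 of high glucose. Depth limits MMP3, MMP9 and MMP13, whose counts were at most 11 reads per library. The causes were not tested.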
